A study of Homo sapiens with 12 samples.

Results

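Lysosomal genes were followed in A549 cells, a human lung adenocarcinoma line, after knockdown of GOLM1, which encodes a Golgi membrane protein. The 39 members, of 57773 genes in the count table, were chosen by symbol: 7 cathepsins, 13 other hydrolases and cofactors, 7 membrane proteins and receptors, 10 subunits of the vacuolar proton pump (V-ATPase) and 2 transcription factors. One symbol, CLN3, stood on 2 rows, and the second of these (ENSG00000261832) had no count in any library, so 39 of 40 rows passed the filter on low counts.

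RNA was sequenced from cells that had received siGOLM1-1, siGOLM1-2 or a non-targeting control siRNA by reverse transfection (50 nM, harvested at 72 h), with 4 biological replicates in each group per the labels. Each knockdown group rests on a single siRNA, and both were set against the same 4 control libraries, so the 2 comparisons with the control share those libraries. Values are CPM, a gene's count scaled to a common library total after TMM adjustment. They are shares of the counted RNA, so a gene's own rise cannot be told from a fall of the other RNA. Fewer cells and less RNA per cell cannot be told apart either. A gene was called when its edgeR quasi-likelihood adjusted p was under 0.05, with adjustment over the 17532 genes tested. Fold changes are log2 values with their standard error (SE).

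Lysosomes degrade proteins, lipids, glycans and nucleic acids with acid hydrolases. Most soluble hydrolases pass through the Golgi, where a mannose 6-phosphate tag is recognised by receptors that carry them onward, and some reach the lysosome by other receptors. The V-ATPase pumps protons into the lumen, with a membrane sector (V0) that conducts them and a peripheral sector (V1) that hydrolyses ATP. TFEB and TFE3 are transcription factors that switch on many lysosomal genes through a promoter word known as the CLEAR element.

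Library totals ran from 41617042 to 71344718 counts. GOLM1 held 37.5 to 38.9 CPM with siGOLM1-1 and 44.6 to 53.4 CPM with siGOLM1-2, against 344.5 to 378.1 CPM in the control. Of 5 epithelial markers, KRT8, KRT18 and CDH1 were at 96.8 CPM or more in all libraries, KRT19 at 51.5 CPM or more and EPCAM at 3.02 to 6.28 CPM. The summed 5 epithelial markers held 2716 to 3304 CPM with siGOLM1-1 and 5282 to 5464 CPM with siGOLM1-2, against 4801 to 6800 CPM in the control; KRT8 and KRT18 fell with siGOLM1-1 (-1.03 and -1.06) and KRT19 rose with siGOLM1-2 (1.52). Of 7 alveolar and lung adenocarcinoma markers, NKX2-1, SFTPB and SFTPC stayed at or below 0.28 CPM. The sum of all 7, 57.0 to 68.4 CPM with siGOLM1-1 and 143.8 to 154.9 CPM with siGOLM1-2, against 101.1 to 107.0 CPM in the control, was mostly ABCA3, which fell with siGOLM1-1 (-0.76) and rose with siGOLM1-2 (0.55); LAMP3, at most 1.51 CPM, rose with siGOLM1-2 (1.14). Of 7 leukocyte and macrophage markers, PTPRC was at 0 in 6 libraries, CD163 in 9 and CD3E in 11; only CD14 was tested, and it rose with both siRNAs. Their sum was 9.52 to 15.5 CPM with siGOLM1-1 and 10.87 to 12.98 CPM with siGOLM1-2, against 6.93 to 7.49 CPM in the control. Of 3 endothelial markers, CDH5 alone was tested and rose with both siRNAs (1.96 and 1.10), with sums of 1.20 to 1.99 CPM with siGOLM1-1 and 0.61 to 0.998 CPM with siGOLM1-2, against 0.24 to 0.64 CPM in the control. The 5 fibroblast markers summed to 48.6 to 93.5 CPM with siGOLM1-1 and 24.6 to 37.5 CPM with siGOLM1-2, against 33.7 to 73.1 CPM in the control, with COL1A2 at 0.05 CPM or less. COL1A1 fell with siGOLM1-2 (-0.85), and COL3A1 fell with siGOLM1-1 (-1.39) and rose with siGOLM1-2 (1.81). The part of these marker differences in the results was not tested.

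Some libraries stood apart from others of their group. Replicate 1 of siGOLM1-1 held the lowest value of its group for 30 of the 39 members and the highest for 0. Replicate 4 of siGOLM1-2 held the highest value for 24 members and the lowest for 10. Control replicate 1 was lowest for 20 members and control replicate 3 highest for 21. The control libraries fell into 2 pairs: over genes, the deviations from the group mean correlated at 0.33 between replicates 1 and 2 and at 0.39 between replicates 3 and 4, and at -0.70 to -0.66 across the pairs. Each knockdown was therefore also set against each control pair alone.

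Most members that passed the test were higher with either siRNA; 23 of 39 were called with siGOLM1-1 and 26 of 39 with siGOLM1-2, where 47.5% and 45.0% of all genes were called in either direction. With siGOLM1-1, 21 members rose (53.8% of those tested, where 23.7% of all genes were called higher), 2 fell (23.8% of all genes were called lower) and 16 were not called. With siGOLM1-2, 23 rose (59.0%, against 21.8% of all genes), 3 fell (23.2% of all genes) and 13 were not called. The median log2 fold change of the members was 0.37 with siGOLM1-1 and 0.26 with siGOLM1-2, beside a median over all genes of -0.01 with each. The libraries did not overlap with the control for 23 members with siGOLM1-1 (59.0%, against 41.0% of all genes) and for 26 with siGOLM1-2 (66.7%, against 45.9%).

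The same 16 members rose with both siRNAs, where 9.01% of all genes did so: CTSA, CTSC, CTSD, CTSH and CTSS among the cathepsins, PSAP, HEXA, GLB1, GAA, ASAH1, TPP1 and GRN among the other hydrolases and cofactors, the membrane proteins LAMP2, CD63 and M6PR, and the pump subunit ATP6V0E1. Among these 16, the siGOLM1-2 calls of ASAH1 and TPP1 were lost against either control pair alone. The calls of CTSC with siGOLM1-1 and CTSD with siGOLM1-2 were each lost against a single pair. SCARB2 was the single member that fell with both siRNAs, where 8.98% of all genes did. LIPA, GUSB and ATP6V1C1 were called in opposite directions (7.11% of all genes), and 10 members were called with neither. The authors' deposited tables gave the same calls for all 39 members in both comparisons, and their log2 fold changes differed by at most 0.02.

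**Figure D1:**
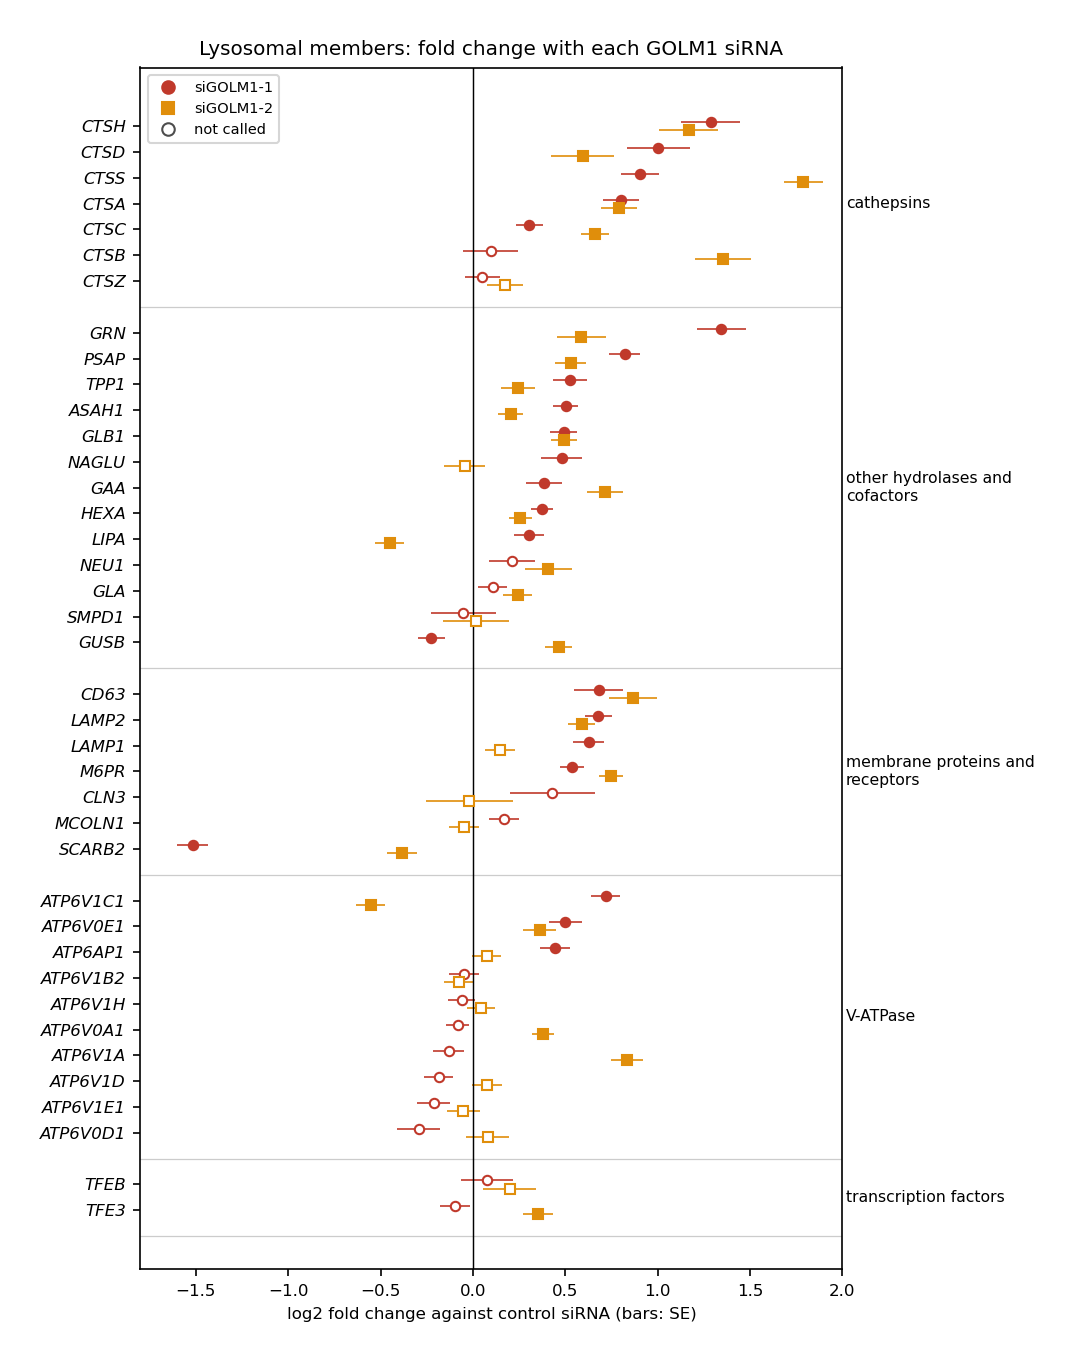
Log2 fold change of each tested member with siGOLM1-1 (circles) and siGOLM1-2 (squares) against the control, with SE bars, 4 libraries per group and open symbols for values not called. Cathepsins and other hydrolases lie mostly right of 0, with medians of 0.80 and 0.39 for siGOLM1-1, whereas the V-ATPase median is -0.07 and SCARB2 lies at -1.52.

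Summed over a class, the cathepsins took 1609 to 2532 CPM with siGOLM1-1 and 2886 to 3505 CPM with siGOLM1-2, against 1415 to 1630 CPM in the control. The other hydrolases and cofactors summed to 4307 to 5496 CPM with siGOLM1-1 and 4044 to 4218 CPM with siGOLM1-2, against 2942 to 3073 CPM in the control. The sums of the knockdown groups thus lay above all control sums for the hydrolases, while for the cathepsins siGOLM1-1 replicate 1 overlapped the control. The membrane proteins and receptors summed to 974 to 1230 CPM with siGOLM1-1 and 1155 to 1384 CPM with siGOLM1-2. Both lay above all control sums, at 803 to 920 CPM. The V-ATPase subunits spanned a narrower range, at 916 to 1100 CPM with siGOLM1-1 and 958 to 1054 CPM with siGOLM1-2, against 868 to 922 CPM in the control. All their siGOLM1-2 sums lay above the control, while siGOLM1-1 replicate 1 overlapped it. Sums are dominated by a few abundant members, CTSB and CTSD among the cathepsins and PSAP among the others.

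**Figure D2:**
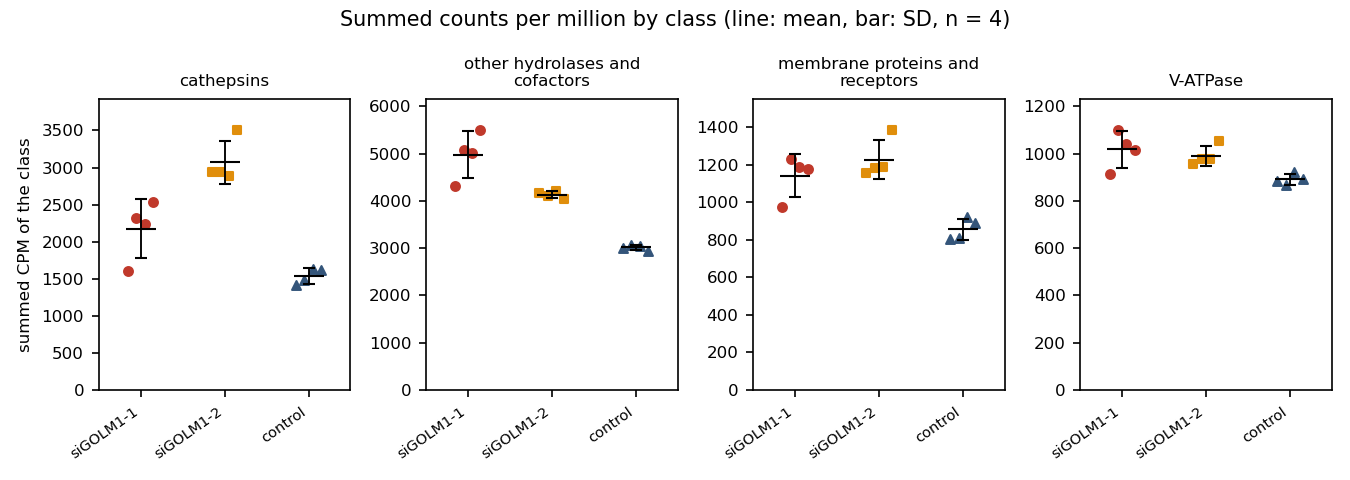
Summed CPM of each class in every library, with the mean and SD of 4 libraries per group. The summed cathepsins average 2175 CPM with siGOLM1-1 and 3069 CPM with siGOLM1-2, against 1538 CPM in the control. The V-ATPase sums lie closer together, averaging 1018, 991 and 892 CPM in the same order, with all siGOLM1-2 libraries above the control.

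TFEB (ENSG00000112561), a master regulator of lysosome formation, held 10.7, 11.6, 9.30 and 12.3 CPM with siGOLM1-1 and 12.8, 12.4, 12.4 and 10.3 CPM with siGOLM1-2, against 7.93, 9.28, 12.8 and 11.6 CPM in the control. All 3 groups overlapped, and TFEB was called with neither siRNA (log2 fold change 0.08, SE 0.14, and 0.20, SE 0.14). Against control replicates 1 and 2 alone, its difference with siGOLM1-2 was 0.47 (adjusted p = 0.0192). TFE3, its relative, held 120.3, 134.3, 140.5 and 143.9 CPM with siGOLM1-1 and 183.3, 180.3, 175.3 and 196.9 CPM with siGOLM1-2, against 130.9, 134.8, 155.4 and 155.4 CPM in the control. TFE3 rose with siGOLM1-2 (0.35, SE 0.08, adjusted p = 0.0025), where all 4 libraries lay above the control, and was not called with siGOLM1-1 (-0.10, SE 0.08). The direct difference between the siRNAs was -0.45 (SE 0.08, adjusted p = 0.00029).

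The CLEAR-type words were looked up in RefSeq promoter windows (GRCh38.p14), which reach from 250 bases before to 50 bases after a transcript start. Of the 39 members, 27 had a window. A symbol with several windows was counted when any of them held the word. The core palindrome TCACGTGA was present in 6 of the 27 (22.2%), ATP6V0D1, CLN3, CTSA, GAA, LAMP1 and MCOLN1, and in 1.18% of all 27305 symbols with a window. The shorter word TCACGTG, sought on both strands and contained in that palindrome, was in 9 of the 27 (33.3%), with CTSD, M6PR and NEU1 added, and in 4.49% of all symbols. A match is a string in the reference and does not show that a factor binds there.

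The stretches of 100 bases before the start are shown for 7 of these members, since they show how the same word sits before genes that did and did not change. M6PR has another annotated start, whose window lacks the word and is not shown. Capitals mark TCACGTG or its reverse complement, which overlap to make the palindrome, and each stretch reads 5′ to 3′ on the gene's strand.
CTSA (chr20:45891235-45891334, + strand): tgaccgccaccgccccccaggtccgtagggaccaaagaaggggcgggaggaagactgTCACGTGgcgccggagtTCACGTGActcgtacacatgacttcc
GAA (chr17:80101481-80101580, + strand): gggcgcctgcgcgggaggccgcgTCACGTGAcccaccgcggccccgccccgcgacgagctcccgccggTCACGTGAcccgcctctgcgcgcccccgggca
LAMP1 (chr13:113297139-113297238, + strand): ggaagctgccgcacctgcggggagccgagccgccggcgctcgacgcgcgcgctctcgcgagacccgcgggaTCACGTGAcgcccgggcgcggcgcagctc
MCOLN1 (chr19:7522524-7522623, + strand): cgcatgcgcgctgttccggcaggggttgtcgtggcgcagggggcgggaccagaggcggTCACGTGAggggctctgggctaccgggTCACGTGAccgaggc
ATP6V0D1 (chr16:67481158-67481257, − strand): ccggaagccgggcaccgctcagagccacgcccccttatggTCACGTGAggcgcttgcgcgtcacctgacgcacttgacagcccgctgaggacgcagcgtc
CTSD (chr11:1763928-1764027, − strand): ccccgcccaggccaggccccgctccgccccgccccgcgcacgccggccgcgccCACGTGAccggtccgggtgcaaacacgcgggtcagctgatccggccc
M6PR (chr12:8949411-8949510, − strand): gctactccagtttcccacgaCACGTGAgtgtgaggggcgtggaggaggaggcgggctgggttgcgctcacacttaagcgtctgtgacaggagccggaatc

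The palindrome was found 2 times each before GAA and MCOLN1 and 2 times in the LAMP1 window, where the second spans the start and is not shown. Of the 9 members whose window holds the 7-base word, 5 rose and 0 fell with siGOLM1-1 (median 0.43), and 5 rose and 0 fell with siGOLM1-2 (median 0.41). Of the 18 with a window that lacks it, 8 rose and 2 fell with siGOLM1-1 (median 0.09), and 10 rose and 2 fell with siGOLM1-2 (median 0.24). Of the 12 members with no window, 8 rose and 0 fell with siGOLM1-1 (median 0.49), and 8 rose and 1 fell with siGOLM1-2 (median 0.31). Over all genes, 23.7% were called higher and 23.8% lower with siGOLM1-1, and 21.8% and 23.2% with siGOLM1-2. Whether the word goes with a rise was not tested. Among the 9 carriers, CTSA, CTSD, GAA and M6PR rose with both siRNAs, LAMP1 with siGOLM1-1 only and NEU1 with siGOLM1-2 only. MCOLN1, ATP6V0D1 and CLN3 were called with neither, and their windows hold the 8-base palindrome, as do those of CTSA, GAA and LAMP1.

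**Figure D3:**
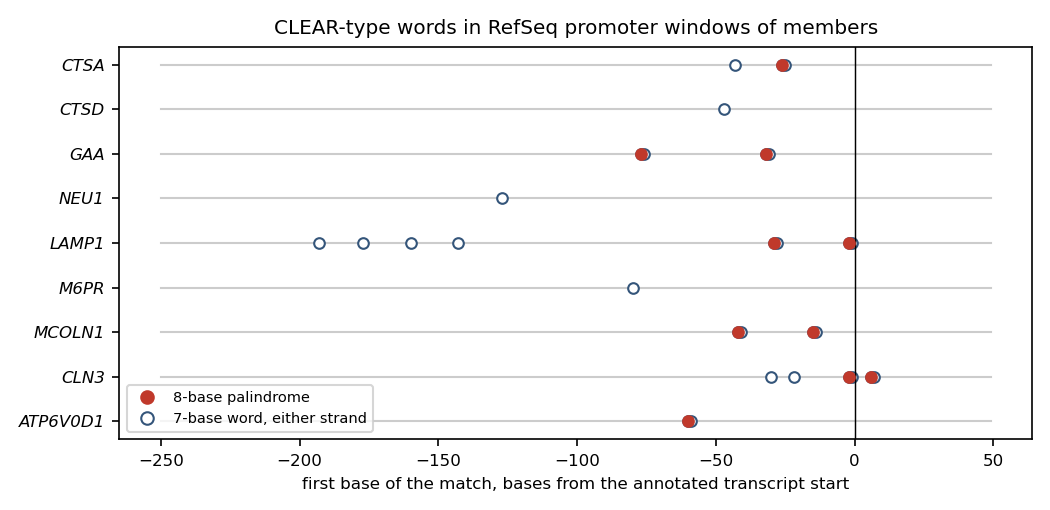
First base of each match to the 8-base palindrome TCACGTGA (filled) and the 7-base word TCACGTG on either strand (open), in bases from the annotated transcript start (0), for the 9 members with a match; the 2 windows of CLN3 are drawn on its line. Each palindrome lies within 77 bases before the start or just past it.

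Cathepsins, the proteases of the lysosome, were the class with the highest median in both comparisons. With siGOLM1-1, 5 of 7 rose (71.4%, against 23.7% of all genes) and 0 fell (against 23.8%), with a median of 0.80. With siGOLM1-2, 6 of 7 rose (85.7%, against 21.8%) and 0 fell (against 23.2%), with a median of 0.79. CTSZ, a carboxypeptidase, was the member called with neither, at 160.0 to 210.3 CPM with siGOLM1-1 and 196.2 to 218.5 CPM with siGOLM1-2, against 163.6 to 203.1 CPM in the control. The groups overlapped (0.05, SE 0.10, and 0.17, SE 0.10); with library totals as the scaling, the siGOLM1-2 value was 0.25 and called (adjusted p = 0.0247), and against control replicates 1 and 2 alone it was 0.31 (adjusted p = 0.0394).

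CTSS (ENSG00000163131), a cysteine protease of antigen processing, held 48.8, 55.0, 57.3 and 55.0 CPM with siGOLM1-1 and 93.98, 97.10, 93.35 and 115.1 CPM with siGOLM1-2, against 33.8, 30.5, 26.3 and 24.9 CPM in the control. The 3 groups were fully separated. The rise was 0.90 with siGOLM1-1 (SE 0.10, adjusted p = 9.4e-06) and 1.79 with siGOLM1-2 (SE 0.10, adjusted p = 5.2e-08), and the direct difference was -0.89 (SE 0.10, adjusted p = 6.5e-06).

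CTSB (ENSG00000164733), an abundant cysteine protease, differed between the siRNAs most of all members on the negative side. It held 481.5, 817.8, 733.9 and 825.3 CPM with siGOLM1-1 and 1586, 1630, 1529 and 2101 CPM with siGOLM1-2, against 659.9, 666.3, 684.6 and 664.4 CPM in the control. Every siGOLM1-2 library lay above all others, while the siGOLM1-1 libraries lay on both sides of the control. CTSB rose 2.56-fold with siGOLM1-2 (1.36, SE 0.15, adjusted p = 1.0e-05), was not called with siGOLM1-1 (0.10, SE 0.15), and differed between them by -1.26 (SE 0.15, adjusted p = 9.4e-06).

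CTSH, an aminopeptidase, and CTSA, the protective protein that stabilises the enzymes of GLB1 and NEU1, rose with both. CTSH held 34.8, 62.8, 53.3 and 58.7 CPM with siGOLM1-1 and 43.3, 46.6, 42.8 and 59.9 CPM with siGOLM1-2, against 20.8, 20.5, 22.1 and 22.4 CPM in the control. Its rises were 1.29 (SE 0.16, adjusted p = 2.3e-05) and 1.17 (SE 0.16, adjusted p = 6.3e-05), and the direct difference of 0.12 (SE 0.16) was not called. Without siGOLM1-1 replicate 1, that difference was 0.28 (adjusted p = 0.046). CTSA rose by 0.80 (SE 0.10) and 0.79 (SE 0.10), with a direct difference of 0.01 (SE 0.10).

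CTSD, the major aspartic protease, held 539.2, 776.0, 803.3 and 931.8 CPM with siGOLM1-1 and 593.1, 552.1, 596.0 and 553.8 CPM with siGOLM1-2, against 283.7, 330.7, 438.7 and 468.1 CPM in the control. All knockdown libraries lay above the control. The rise was 1.00 with siGOLM1-1 (SE 0.17, adjusted p = 0.0003) and 0.59 with siGOLM1-2 (SE 0.17, adjusted p = 0.0111); against control replicates 3 and 4 alone the siGOLM1-2 value was 0.36 and not called (adjusted p = 0.0988). The direct difference was 0.41 (adjusted p = 0.0525), and it was called without siGOLM1-1 replicate 1 (0.55, adjusted p = 0.0058), control replicate 1 (0.41, adjusted p = 0.0296) or control replicate 4 (0.41, adjusted p = 0.0404). CTSC, dipeptidyl peptidase I, rose by 0.31 (SE 0.07) with siGOLM1-1 and 0.66 (SE 0.08) with siGOLM1-2, and differed between them by -0.36 (adjusted p = 0.0012). Its siGOLM1-1 rise was 0.18 and not called against control replicates 1 and 2 alone (adjusted p = 0.0697). In GENCODE release 29, other genes overlap 52.7% of the exonic bases of CTSD and 28.5% of those of CTSA, and the strand setting of the counts was not given in the sources used here.

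**Figure D4:**
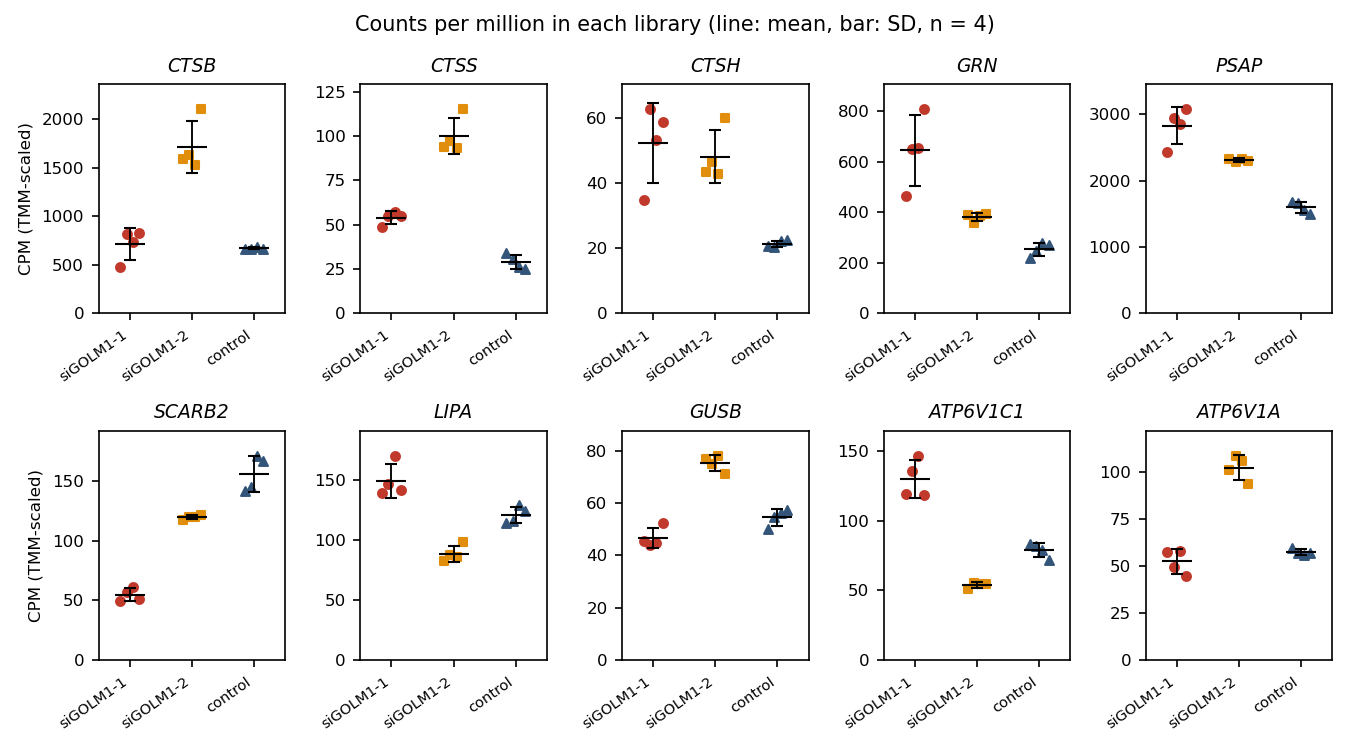
CPM of 10 members in each library, with the mean and SD of 4 libraries per group. CTSS, CTSH, GRN and PSAP lie above the control with both siRNAs, CTSB and ATP6V1A only with siGOLM1-2, SCARB2 lies below it with both, and LIPA, GUSB and ATP6V1C1 have opposite calls.

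Among the other hydrolases and cofactors, 9 of 13 rose (69.2%, against 23.7% of all genes) and 1 fell (against 23.8%) with siGOLM1-1 (median 0.39). With siGOLM1-2, 10 rose (76.9%, against 21.8%) and 1 fell (against 23.2%), with a median of 0.26. PSAP (ENSG00000197746), the precursor of the saposins that present sphingolipids to hydrolases, was the most abundant member per kilobase of exon in all groups, at 873 CPM per kilobase with siGOLM1-1 and 714 with siGOLM1-2, against 494 in the control. Its libraries held 2433, 2950, 2852 and 3080 CPM with siGOLM1-1 and 2331, 2284, 2331 and 2299 CPM with siGOLM1-2, against 1682, 1657, 1560 and 1502 CPM in the control, and each knockdown library lay above each control library. PSAP was higher with siGOLM1-1 than with siGOLM1-2 by 0.29 (SE 0.08, adjusted p = 0.0091), a call that ended with library totals as the scaling (0.16, adjusted p = 0.107).

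GRN (ENSG00000030582), progranulin, a secreted and lysosomal glycoprotein that is cleaved into granulins, held 465.0, 651.1, 652.8 and 808.0 CPM with siGOLM1-1 and 387.9, 358.8, 384.9 and 392.5 CPM with siGOLM1-2, against 218.8, 246.1, 276.9 and 272.4 CPM in the control. The groups were fully separated from each other. Its rise was 2.54-fold with siGOLM1-1 (1.35, SE 0.13, adjusted p = 2.9e-06) and 1.503-fold with siGOLM1-2 (0.59, SE 0.13, adjusted p = 0.0025), and the siRNAs differed by 0.76 (SE 0.13, adjusted p = 0.0003).

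The glycan hydrolases had mixed values. GLB1, the beta-galactosidase, rose by 0.49 (SE 0.07) with each siRNA, with a direct difference of 0.00 (SE 0.07). GAA, which degrades glycogen, rose by 0.39 (SE 0.10) with siGOLM1-1 and 0.71 (SE 0.10) with siGOLM1-2, and differed by -0.33 (adjusted p = 0.0108). HEXA, the alpha subunit of beta-hexosaminidase, rose by 0.37 (SE 0.06) and 0.26 (SE 0.06). NAGLU, which acts on heparan sulfate, rose with siGOLM1-1 (0.48, SE 0.11, adjusted p = 0.0029) but was at -0.05 (SE 0.11) with siGOLM1-2, and this difference was called (0.53, adjusted p = 0.0012).

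GLA, the alpha-galactosidase A, and NEU1, a sialidase, rose with siGOLM1-2 (0.24, adjusted p = 0.0214, and 0.41, adjusted p = 0.0166). With siGOLM1-1 they were at 0.11 and 0.21, not called, and neither direct difference was called (-0.14, adjusted p = 0.156, and -0.19, adjusted p = 0.204), though both were with library totals as the scaling (-0.27 and -0.33, adjusted p = 0.017 and 0.0276). Both calls against the control were lost in some alternatives. Without siGOLM1-2 replicate 4, control replicate 3 or control replicate 4, GLA was at 0.22, 0.20 and 0.18 and not called, and against control replicates 1 and 2 alone it was at 0.10 (adjusted p = 0.3). NEU1 was at 0.36 against control replicates 3 and 4 alone (adjusted p = 0.0939); with siGOLM1-1 it was at 0.35 and called without that group's replicate 1 (adjusted p = 0.0047).

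GUSB (ENSG00000169919), the beta-glucuronidase, held 45.6, 43.9, 44.5 and 52.4 CPM with siGOLM1-1 and 76.8, 74.8, 78.1 and 71.0 CPM with siGOLM1-2, against 50.1, 54.5, 56.1 and 57.3 CPM in the control. The siGOLM1-2 libraries were above all others, and the siGOLM1-1 libraries overlapped the control. It rose with siGOLM1-2 (0.46, SE 0.07, adjusted p = 0.00017) and fell with siGOLM1-1 (-0.23, SE 0.07, adjusted p = 0.0198). The fall lost its call without siGOLM1-1 replicate 2 or 3 or control replicate 2, 3 or 4 (-0.21 to -0.20, adjusted p = 0.0514 to 0.0594) and against control replicates 1 and 2 alone (-0.17, adjusted p = 0.17). The direct difference was -0.69 (SE 0.07, adjusted p = 3.0e-06) and kept its call in all alternatives.

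Of the enzymes that act on lipids, LIPA (ENSG00000107798), lysosomal acid lipase, held 139.0, 146.4, 170.5 and 141.4 CPM with siGOLM1-1 and 82.2, 87.5, 86.2 and 98.3 CPM with siGOLM1-2, against 114.6, 116.3, 128.9 and 124.6 CPM in the control. No group overlapped another. LIPA rose with siGOLM1-1 (0.30, SE 0.08, adjusted p = 0.0069) and fell with siGOLM1-2 (-0.45, SE 0.08, adjusted p = 0.00048), and the direct difference was 0.75 (SE 0.08, adjusted p = 3.4e-06). Against control replicates 3 and 4 alone the rise was 0.25 and not called (adjusted p = 0.0667).

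ASAH1, acid ceramidase, rose by 0.50 (SE 0.07) with siGOLM1-1 and 0.21 (SE 0.07, adjusted p = 0.0231) with siGOLM1-2. SMPD1, acid sphingomyelinase, was at -0.05 (SE 0.18) and 0.02 (SE 0.18), with 18.6 to 32.9 CPM with siGOLM1-1 and 25.4 to 32.9 CPM with siGOLM1-2, against 21.1 to 33.6 CPM in the control. TPP1, a tripeptidyl peptidase, rose by 0.52 (SE 0.09) with siGOLM1-1 and 0.25 (SE 0.09, adjusted p = 0.0446) with siGOLM1-2. The siGOLM1-2 rises of ASAH1 and TPP1 lost their calls in 6 and 11 of 22 alternatives. Against control replicates 1 and 2 alone, each was at 0.20 (adjusted p = 0.0936 for ASAH1 and 0.208 for TPP1). Against control replicates 3 and 4 alone, they were at 0.23 and 0.30 (adjusted p = 0.0542 and 0.0599). Without siGOLM1-2 replicate 2 or 3 or control replicate 4, ASAH1 was at 0.19, 0.19 and 0.18 (adjusted p = 0.0616, 0.0614 and 0.0741). TPP1 was not called without any of siGOLM1-1 replicate 3, siGOLM1-2 replicates 1 to 3 or control replicates 1, 3 and 4 (0.17 to 0.24, adjusted p = 0.0559 to 0.152). Its direct difference of 0.28 (SE 0.09, adjusted p = 0.0206) lost its call without replicate 4 of siGOLM1-1 (0.23, adjusted p = 0.0621) or of siGOLM1-2 (0.20, adjusted p = 0.055). That call was also lost with library totals as the scaling (0.15, adjusted p = 0.215) and with only the 2 groups compared (0.25, adjusted p = 0.0583).

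Among membrane proteins and receptors, 4 of 7 rose (57.1%, against 23.7% of all genes) and 1 fell (against 23.8%) with siGOLM1-1 (median 0.54). With siGOLM1-2, 3 rose (42.9%, against 21.8%) and 1 fell (against 23.2%), with a median of 0.15. SCARB2 (ENSG00000138760), also known as LIMP-2, carries the glucocerebrosidase to the lysosome without mannose 6-phosphate. It held 49.2, 56.7, 61.4 and 51.3 CPM with siGOLM1-1 and 117.4, 119.7, 120.4 and 121.4 CPM with siGOLM1-2, against 141.7, 145.2, 171.5 and 166.5 CPM in the control. The groups were fully separated, and SCARB2 had the largest fall of all members with siGOLM1-1. Its log2 fold change was -1.52 with siGOLM1-1 (SE 0.08, adjusted p = 1.5e-08), a level 2.86 times below the control, and -0.38 with siGOLM1-2 (SE 0.08, adjusted p = 0.0018), and it differed between the siRNAs by -1.13 (SE 0.08, adjusted p = 1.1e-07).

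M6PR, the cation-dependent mannose 6-phosphate receptor, held 165.2, 191.3, 182.4 and 173.0 CPM with siGOLM1-1 and 198.7, 204.1, 198.1 and 222.2 CPM with siGOLM1-2, against 121.4, 120.5, 127.3 and 121.6 CPM in the control. It therefore moved opposite to SCARB2, with rises of 0.54 (SE 0.06, adjusted p = 1.5e-05) and 0.75 (SE 0.06, adjusted p = 1.3e-06). In GENCODE release 29, PHC1 on the opposite strand overlaps 29.3% of the exonic bases of M6PR.

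The lysosomal membrane glycoproteins LAMP1 and LAMP2 differed in pattern. LAMP2 rose with siGOLM1-1 (0.68, SE 0.07) and siGOLM1-2 (0.59, SE 0.07). LAMP1 held 187.5, 206.9, 239.5 and 236.1 CPM with siGOLM1-1 and 150.8, 156.4, 158.3 and 159.0 CPM with siGOLM1-2, against 128.6, 136.3, 149.5 and 149.4 CPM in the control. LAMP1 rose with siGOLM1-1 (0.63, SE 0.08, adjusted p = 3.6e-05) and was not called with siGOLM1-2 (0.15, SE 0.08), although its siGOLM1-2 libraries all lay above the control; the siRNAs differed by 0.48 (adjusted p = 0.00025). With library totals as the scaling the siGOLM1-2 value was 0.23 and called (adjusted p = 0.0227).

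CD63, a tetraspanin of late endosomes and lysosomes, rose with siGOLM1-1 (0.68, SE 0.13, adjusted p = 0.00076) and siGOLM1-2 (0.87, SE 0.13, adjusted p = 0.00013). MCOLN1, the cation channel TRPML1, held 13.3 to 15.8 CPM with siGOLM1-1 and 11.33 to 12.997 CPM with siGOLM1-2, against 12.4 to 13.2 CPM in the control, and was called with neither. Its direct difference of 0.22 (SE 0.08, adjusted p = 0.0338) lost its call in 9 of 20 alternatives. With library totals as the scaling it was 0.09 (adjusted p = 0.381). It was also not called with no filter beyond 1 count in total (adjusted p = 0.103), only the 2 groups compared (adjusted p = 0.104) or a replicate block (adjusted p = 0.0552). The call was lost too without any of siGOLM1-1 replicates 3 and 4, siGOLM1-2 replicates 2 and 4 and control replicate 2 (0.17 to 0.22, adjusted p = 0.052 to 0.0886). CLN3 (ENSG00000188603), a lysosomal membrane protein, was the least abundant member, at 0.71 to 1.62 CPM with siGOLM1-1 and 0.82 to 0.95 CPM with siGOLM1-2, against 0.82 to 1.10 CPM in the control, on 34 to 86 counts per library. It was not called (0.43, SE 0.23, and -0.02, SE 0.23); without siGOLM1-1 replicate 1 the first value was 0.64 (adjusted p = 0.0103), and the direct difference was 0.66 (adjusted p = 0.0071) in place of 0.45 (adjusted p = 0.112). Other genes overlap 30.9% of its exonic bases in GENCODE release 29, and the part of this in its low level was not tested.

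The V-ATPase did not move as a unit. With siGOLM1-1, 3 of 10 subunits rose and 0 fell (median -0.07), and with siGOLM1-2, 3 rose and 1 fell (median 0.08). These shares of 30.0% higher stand beside 23.7% and 21.8% of all genes, and 23.8% and 23.2% of all genes were called lower. With siGOLM1-1, the lower count was 3 without siGOLM1-1 replicate 2, where ATP6V0D1, ATP6V1D and ATP6V1E1 were called (-0.36, -0.24 and -0.31). Without siGOLM1-2 replicate 4, ATP6V0D1 and ATP6V1D were called at -0.29 and -0.19, and without control replicate 1 or 2, ATP6V0D1 was called at -0.36 and -0.33.

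In the V1 sector, ATP6V1C1 (ENSG00000155097), a subunit that links V1 to V0, held 119.3, 135.5, 146.8 and 118.6 CPM with siGOLM1-1 and 50.6, 55.2, 54.7 and 54.9 CPM with siGOLM1-2, against 83.4, 81.8, 78.7 and 72.1 CPM in the control. The groups were fully separated, with siGOLM1-1 above and siGOLM1-2 below the control. It rose by 0.72 with siGOLM1-1 (SE 0.08, adjusted p = 6.8e-06) and fell by 0.55 with siGOLM1-2 (SE 0.08, adjusted p = 8.4e-05). The direct difference of 1.27 (SE 0.08, adjusted p = 2.7e-08) was the largest of any member.

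ATP6V1A (ENSG00000114573), the catalytic subunit, held 57.7, 49.2, 57.9 and 44.8 CPM with siGOLM1-1 and 100.9, 108.8, 105.9 and 93.6 CPM with siGOLM1-2, against 59.7, 57.0, 56.0 and 56.9 CPM in the control. Only the siGOLM1-2 libraries stood above the control. It rose by 0.83 (SE 0.09, adjusted p = 5.3e-06) with siGOLM1-2 and was at -0.13 (SE 0.08) with siGOLM1-1, and the siRNAs differed by -0.96 (SE 0.09, adjusted p = 5.9e-07). ATP6V1B2, its nucleotide-binding partner in the V1 head, was at -0.05 (SE 0.08) and -0.08 (SE 0.08). The catalytic subunit and its partner thus had different calls with siGOLM1-2.

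The remaining V1 subunits, ATP6V1D of the rotor, ATP6V1E1 of the peripheral stalk and the regulatory ATP6V1H, were called with neither siRNA, with fold changes from -0.21 to 0.07. ATP6V1D nonetheless differed between the siRNAs by -0.26 (SE 0.08, adjusted p = 0.0133), without overlap of their libraries and with its call kept in all alternatives. The direct difference of ATP6V1E1 was -0.16 (adjusted p = 0.145), and without siGOLM1-1 replicate 2 it was -0.25 (adjusted p = 0.0148). In V0, ATP6V0A1, an isoform of the proton-conducting subunit, rose with siGOLM1-2 (0.38, SE 0.06, adjusted p = 0.00023) and not with siGOLM1-1 (-0.08, SE 0.06), a difference of -0.46 (adjusted p = 2.7e-05). ATP6V0E1, a small V0 subunit, rose by 0.50 (SE 0.09) with siGOLM1-1 and 0.36 (SE 0.09) with siGOLM1-2. ATP6V0D1 was at -0.29 (SE 0.12, adjusted p = 0.0509) with siGOLM1-1 and 0.08 (SE 0.12) with siGOLM1-2. Its direct difference of -0.38 (SE 0.12, adjusted p = 0.0142) was called in all alternatives, and the libraries of the siRNAs did not overlap. The accessory subunit ATP6AP1 rose with siGOLM1-1 (0.45, SE 0.08, adjusted p = 0.00042), not with siGOLM1-2 (0.08, SE 0.08), and differed by 0.37 (adjusted p = 0.0013).

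Per kilobase of exon (GENCODE release 29), the subunits differed widely within the control, with ATP6V0E1 at 105 CPM per kilobase, ATP6AP1 at 31.2, ATP6V1E1 at 29.2, ATP6V1D at 16.7, ATP6V1C1 at 13.5 and ATP6V1A at 11.2. The others lay between 6.02 for ATP6V0A1 and 10.95 for ATP6V0D1. On this scale ATP6V1C1 was above ATP6V1A with siGOLM1-1, at 22.2 and 10.2 CPM per kilobase, and below it with siGOLM1-2, at 9.21 and 19.9. Exon lengths count all annotated isoforms, so these levels are approximate.

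Set directly against each other, the siRNAs differed in 22 of 39 members (56.4%, where 54.4% of all genes differed), and their libraries did not overlap for 21 members (48.4% of all genes). With siGOLM1-1, 10 members were higher (27.9% of all genes) and 12 lower (26.5%) than with siGOLM1-2. With library totals as the scaling, 7 were higher and 18 lower, while the higher share of the called genes over the whole table was 37.4% in place of 51.2%, and the median of all genes was -0.12. By class, 0 of 7 cathepsins were higher and 3 lower (CTSB, CTSC and CTSS), 6 of 13 other hydrolases higher and 2 lower, 2 of 7 membrane proteins higher and 2 lower, and 2 of 10 V-ATPase subunits higher and 4 lower. Of those called by at least 1 on the log2 scale, ATP6V1C1 was higher and CTSB and SCARB2 lower.

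**Figure D5:**
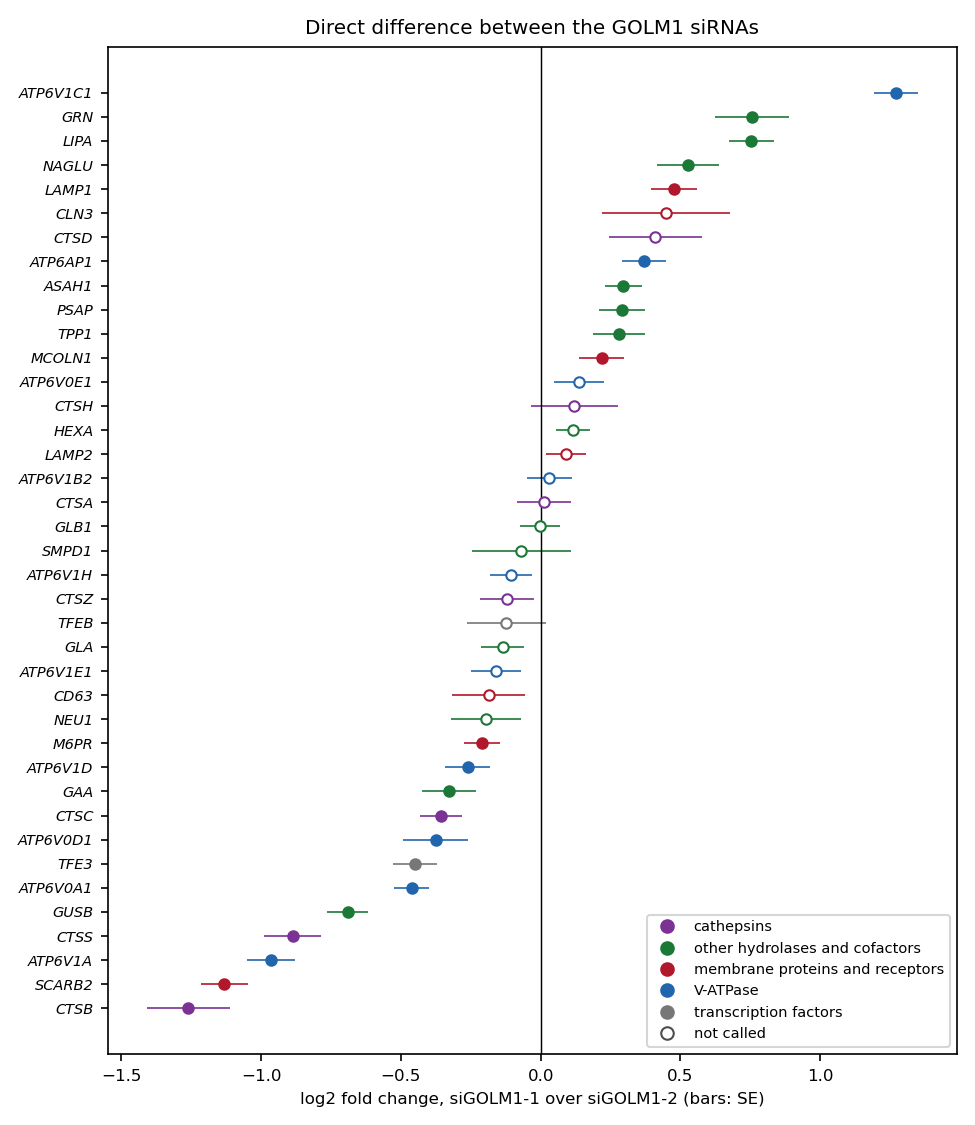
Log2 fold change of siGOLM1-1 over siGOLM1-2 for each tested member, with SE bars, colours for the classes and open symbols for values not called. Values run from -1.26 for CTSB to 1.27 for ATP6V1C1, and members of each of the 4 larger classes lie on both sides of 0.

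Other lysosomal genes outside the 39 were read from lists of the same pathway, beside the shares of all genes called higher and lower (23.7% and 23.8% with siGOLM1-1, 21.8% and 23.2% with siGOLM1-2). Of 46 other hydrolases and cofactors tested, 19 rose (41.3%) and 10 fell (21.7%) with siGOLM1-1 (median 0.17), and 21 rose (45.7%) and 5 fell (10.9%) with siGOLM1-2 (median 0.22). The share that fell with siGOLM1-1 was near that of all genes. The cathepsin CTSO rose with both, at 5.65 to 8.19 CPM with siGOLM1-1 and 6.52 to 7.07 CPM with siGOLM1-2, against 1.97 to 2.46 CPM in the control (1.66, SE 0.13, and 1.62, SE 0.13). LGMN, legumain, rose by 0.30 and 0.78. The cathepsin CTSV fell with both (-0.43 and -1.50), and GALC, galactosylceramidase, fell with siGOLM1-2 (-0.997, SE 0.09) and was at -0.10 with siGOLM1-1.

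Of 32 other lysosomal membrane proteins tested, 13 rose (40.6%, against 23.7% of all genes) and 4 fell (12.5%, against 23.8%) with siGOLM1-1 (median 0.09), and 12 rose (37.5%, against 21.8%) and 4 fell (12.5%, against 23.2%) with siGOLM1-2 (median 0.19). CLN8, an endoplasmic reticulum protein that helps export lysosomal enzymes, rose with both (1.11, SE 0.07, and 1.03, SE 0.07). The transporters SLC17A5, which exports sialic acid, and SLC29A3, a nucleoside carrier, rose with siGOLM1-1 (1.39, SE 0.13, and 1.64, SE 0.16) and were not called with siGOLM1-2 (0.28 and 0.19). LITAF, a late endosomal protein, rose by 0.996 (SE 0.08) with siGOLM1-1 and was at 0.05 with siGOLM1-2.

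Of 13 other V-ATPase subunits tested, 5 rose (38.5%, against 23.7% of all genes) and 3 fell (23.1%, against 23.8%) with siGOLM1-1 (median -0.25), and 2 rose (15.4%, against 21.8%) and 1 fell (7.69%, against 23.2%) with siGOLM1-2 (median 0.14). ATP6V1E2, an isoform of the stalk subunit, fell with both, at 4.45 to 5.99 CPM with siGOLM1-1 and 6.86 to 8.16 CPM with siGOLM1-2, against 14.8 to 16.4 CPM in the control (-1.50, SE 0.11, and -1.05, SE 0.10). ATP6V0E2 fell with siGOLM1-1 (-0.93, SE 0.11) and was at 0.14 with siGOLM1-2, while its isoform ATP6V0E1 rose with both. The accessory ATP6AP2 rose by 0.29 and 0.40. ATP6V0A4, another isoform of the proton-conducting subunit, rose with siGOLM1-2 (1.21, SE 0.26) and was at -0.55 (SE 0.27) with siGOLM1-1.

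The mannose 6-phosphate sorting list had 7 of 15 higher (46.7%, against 23.7% of all genes) and 4 lower (26.7%, against 23.8%) with siGOLM1-1 (median 0.00), and 4 higher (26.7%, against 21.8%) and 3 lower (20%, against 23.2%) with siGOLM1-2 (median 0.04). Its shares with siGOLM1-2 were near those of all genes. GNPTG, a subunit of the enzyme that makes the tag, rose by 0.36 (SE 0.08) and 0.88 (SE 0.08), and the sorting receptor SORT1 rose by 0.63 (SE 0.06) and 0.35 (SE 0.06). The adaptor GGA2, which carries the receptors from the Golgi, fell by 0.63 with siGOLM1-1 and by 0.24 with siGOLM1-2. VPS35 of retromer, which returns receptors to the Golgi, rose with siGOLM1-1 (0.19, adjusted p = 0.043) and fell with siGOLM1-2 (-0.55).

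Of 5 cystatins tested, inhibitors of cysteine cathepsins, 2 rose with siGOLM1-1 (40.0%, against 23.7% of all genes) and 3 with siGOLM1-2 (60.0%, against 21.8%), and 0 fell. CST3, the abundant secreted form, rose by 0.57 (SE 0.10) and 0.50 (SE 0.10). CSTB, an intracellular form, rose with siGOLM1-1 (0.74, SE 0.13) and was at -0.05 with siGOLM1-2. CST1 rose with siGOLM1-2 (2.93, SE 0.47), at 42.5 to 88.6 CPM, against 3.64 to 11.5 CPM in the control, and held 2.94 to 13.8 CPM with siGOLM1-1 (0.10, SE 0.45). CST4 also rose with siGOLM1-2 (3.82, SE 0.80), at 0.41 to 2.63 CPM, against 0.02 to 0.12 CPM in the control.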

How the data were processed

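Per the submitters' processing notes, reads were demultiplexed with bcl2fastq 2.20, aligned with STAR 2.7.3 to hg19 and analysed with DESeq2 1.24.0; per the labels' protocols, libraries came from a stranded mRNA kit, read in paired-end mode. Neither the counter nor the annotation release nor its strand setting is given in the sources used here. The authors deposited raw counts per gene, which were used as they are. Per the file headers, the authors' result tables list the mean normalised count of a gene as a signal, its log2 fold change and SE, the Wald statistic as a score, and both the raw p-value and its adjusted form; calls were compared by the fold change and adjusted p.

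Here, genes were kept with filterByExpr (17532 of 57773) and scaled with TMM factors. All 12 libraries entered 1 quasi-likelihood fit (edgeR 4.0.16, R 4.3.3) with 9 residual degrees of freedom. On simulated counts for siGOLM1-1 against the control, it recovered 45% of genes changed 1.5-fold and 76% of those changed 2-fold. Of its calls there, 3.2% were false. Only 100 genes were changed at each fold there, whereas 47.5% of all genes were called with siGOLM1-1 in the data. The simulated libraries were also drawn independently, without the control pairs, so these rates need not hold for the data. A member not called may still differ. Replicate libraries of a group differed by 5.81 to 89.0 times the sampling variance, so none was a duplicate. Exon lengths and overlaps come from GENCODE release 29, matched by gene ID without coordinates.

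All 39 members are accounted for, with GOLM1 and up to 4 genes of each pathway list with the smallest p in either comparison with the control; other genes named are from the marker lists or the annotation. The members and lists were chosen with earlier results of these data known. The alternatives covered scaling, filters, DESeq2 1.42.0, the libraries in the fit, a replicate block and each library left out.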

Additional observations from a re-analysis of the deposited data

Results flagged for a closer look

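In 117 sets of 4 libraries (a member in a group), 5 held a library whose gap to its nearest neighbour, divided by the range of the set, was above the 95% critical value of Dixon's ratio. Chance flags about 1 in 20 such sets. Replicate 4 of siGOLM1-2 was highest for CD63 (ratio 0.96, with 688.1 CPM where the others held 512.8 to 519.8) and for ATP6V0D1 (ratio 0.927, with 108.9 CPM where the others held 89.8 to 91.2). It was lowest for TFEB (ratio 0.833, 10.3 CPM where the others held 12.4 to 12.8). Replicate 1 of siGOLM1-2 was lowest for ATP6V1C1 (ratio 0.887, 50.6 CPM where the others held 54.7 to 55.2), and control replicate 3 was highest for M6PR (ratio 0.831, 127.3 CPM where the others held 120.5 to 121.6).

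For 3 of 39 members the siRNAs were called in opposite directions against the control, near the 7.11% of all genes that were. Their direct difference was called as well, but it rests on the same knockdown libraries and is no separate evidence. ATP6V1C1 was at 0.72 with siGOLM1-1 and -0.55 with siGOLM1-2, a difference of 1.27 (adjusted p = 2.7e-08). LIPA was at 0.30 and -0.45, a difference of 0.75 (adjusted p = 3.4e-06). GUSB was at -0.23 and 0.46, a difference of -0.69 (adjusted p = 3.0e-06).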

How the results depend on the processing

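No call of a member reversed under any alternative that was run. With siGOLM1-1, 20 of 23 called members kept their call in all alternatives, with siGOLM1-2 21 of 26, and in the direct comparison 18 of 22. With siGOLM1-1, 2 members were called lower as reported, but 5 with library totals as the scaling, 5 where genes below 1 CPM in 9 or more libraries were dropped and 1 with control replicates 1 and 2 alone; the cause was not tested. Leaving out each library in turn gave 1 to 4. The replicate numbers were not taken as pairs. Deviations of same-numbered libraries correlated from -0.20 to 0.35, highest for replicate 1 of siGOLM1-1 and of the control. No values were taken for different-numbered libraries of 2 groups, so whether the numbers pair the libraries was not settled. With a replicate block, 21 members were higher and 3 lower with siGOLM1-1, and 22 higher and 3 lower with siGOLM1-2. In the direct comparison, 10 were then higher and 12 lower with siGOLM1-1 than with siGOLM1-2. With library totals, 59.2% of the genes called with siGOLM1-2 were higher, in place of 48.4%, and 80.8% of the members called with siGOLM1-1, in place of 91.3%. Counts limit CLN3, with at least 34 per library, more than the next lowest member TFEB, with at least 386.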

Other observations

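Of 22 Rag, Ragulator and related genes tested, which control TFEB from the lysosome surface, 5 rose (22.7%, against 23.7% of all genes) and 2 fell (9.09%, against 23.8%) with siGOLM1-1 (median 0.05), and 5 rose (22.7%, against 21.8%) and 3 fell (13.6%, against 23.2%) with siGOLM1-2 (median -0.01). The shares that rose were near those of all genes. The 14-3-3 protein gene YWHAB, whose family retains phosphorylated TFEB in the cytosol, held 114.1 to 140.9 CPM with siGOLM1-1 and 315.6 to 352.0 CPM with siGOLM1-2, against 392.1 to 427.0 CPM in the control. It fell by 1.70 (SE 0.08) with siGOLM1-1 and by 0.29 (SE 0.07) with siGOLM1-2. The small GTPase gene RRAGC rose by 0.91 (SE 0.13) and 0.43 (SE 0.12). PPP3CB, a catalytic subunit of the phosphatase calcineurin, and TSC1 fell with siGOLM1-2 (-0.73 and -0.66) and were at 0.12 and 0.10 with siGOLM1-1.

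Of 10 V-ATPase assembly factors tested, 2 rose (20%, against 23.7% of all genes) and 3 fell (30.0%, against 23.8%) with siGOLM1-1 (median -0.32), and 1 rose (10.0%, against 21.8%) and 3 fell (30.0%, against 23.2%) with siGOLM1-2 (median -0.10). TMEM199 fell with siGOLM1-2 (-0.78, SE 0.07) and was at -0.05 with siGOLM1-1. TLDC1 rose by 0.45 (SE 0.13) and 0.68 (SE 0.13), and OXR1 fell by 0.33 and by 0.63. WDR7 fell with siGOLM1-1 (-0.41, SE 0.12) and was at -0.20 with siGOLM1-2.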
